A study of Mus musculus with 6 samples.

Results

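Heterotrimeric G proteins, adenylyl cyclases, cyclic nucleotide phosphodiesterases and protein kinase A (PKA) were followed in mouse CD8+ T cells cultured with vehicle or aminooxyacetic acid (AOA), an inhibitor of enzymes that use the active form of vitamin B6. Genes were taken by symbol alone: names of G alpha (Gna), G beta (Gnb1 to Gnb5), G gamma (Gng), adenylyl cyclase (Adcy), phosphodiesterase (Pde with a number and a letter) and PKA catalytic or regulatory (Prkac, Prkar) genes. This gave 42 of the 11922 genes in the deposited counts: 9 G alpha, 4 G beta, 7 G gamma, 4 adenylyl cyclase, 12 phosphodiesterase, 2 PKA catalytic and 4 PKA regulatory genes. Membership follows from the name, but the families as a subject were chosen by their differences in this same vehicle and AOA comparison, which were known beforehand. Values and calls are therefore a description of these genes, and nothing is read from their counts. Splenic CD8+ T cells of C57BL6/J mice, enriched on magnetic beads against CD8 alpha, were activated through CD3 and CD28 on beads for 72 hours and then expanded for 4 days. Both groups received interleukin-2 at 100 units per ml throughout. Water was the vehicle, the other group had 0.25 mM AOA for all 7 days, and each of 3 donor mice gave 1 culture to each group. RNA was taken on day 7, as 3 vehicle and 3 AOA libraries numbered by mouse. Age and sex of the mice are not in the labels.

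In this pathway a receptor on the cell surface activates a G protein made of an alpha, a beta and a gamma subunit. Alpha subunits of the Gs class stimulate adenylyl cyclases, which make cyclic AMP (cAMP), and those of the Gi class inhibit them, while Gq class subunits act on phospholipase C. Phosphodiesterases break down cAMP, cyclic GMP (cGMP) or both, and cAMP acts mainly by releasing the catalytic subunits of PKA from its regulatory subunits. In T cells cAMP is known as a brake on activation through the T cell receptor.

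Total counts ran from 12881962 to 18934869 in the vehicle libraries and from 18696114 to 21997078 in the AOA libraries. The most abundant CD8 lineage genes of the T cell list, Cd8a and Cd8b1, lay between 654 and 1700 CPM (counts per 1000000 reads, with library sizes scaled by the TMM method of edgeR) in every library and were both called higher with AOA (by the test given below). Of the other T cell markers, Cd2 was called lower (log2 fold change -0.61) and Cd3e, Cd3d and Cd3g were not called (-0.27, -0.13 and -0.31). Markers of other cells also differed between the groups. Of the 7 myeloid markers looked for, 5 had values, 3 were tested and all 3 were lower with AOA (Itgam, Cd68 and Fcer1g). The 5 summed to 61.2, 121 and 61.3 CPM in vehicle replicates 1, 2 and 3 and to 5.42 to 10.4 CPM with AOA. Itgam gave 42.8, 52.9 and 40.5 CPM of the vehicle sums. Lyz2, not tested, went the other way, with 0, 5 and 0 counts with vehicle and 6, 22 and 2 with AOA. Cd14, also not tested, was at 0 in AOA replicates 1 and 3. The groups of Fcer1g overlapped, and its log2 fold change was -3.63 with all libraries and -1.28 without vehicle replicate 2, still called lower. Of 5 CD4 T cell markers 4 were lower (Cd4, Cd40lg, Zbtb7b and Ctla4), and all 5 summed to 516 to 945 CPM with vehicle and 148 to 210 CPM with AOA. Ctla4 held most of each sum, at 634, 348 and 734 CPM in vehicle replicates 1, 2 and 3. Foxp3 was not called (log2 fold change 0.36), but was called higher without vehicle replicate 2 (0.55). The 4 NK cell markers with values, of 5 looked for, summed to 523, 971 and 521 CPM in vehicle replicates 1, 2 and 3 and 705 to 927 CPM with AOA, so that without vehicle replicate 2 all AOA libraries were above vehicle and Nkg7 was called higher (log2 fold change 0.89). Nkg7 held most of each of these sums, at 347, 663 and 375 CPM with vehicle and 800, 609 and 558 CPM with AOA. Klrb1c was called lower, with all libraries and without vehicle replicate 2 (log2 fold changes -3.02 and -2.07). Ncr1 was at 0 in vehicle replicates 1 and 3 and at 2.35 CPM in vehicle replicate 2. Platelet and dendritic cell markers were each represented by 1 gene, Itga2b and Itgax, both lower with AOA, as were Pecam1, Kdr and Pdgfrb of the endothelial and stromal list. Of the 5 B cell markers tested 1 was higher (Cd79b) and 1 lower (Cd22). Together they summed to 13.9, 18.4 and 17.6 CPM with vehicle and 30.9, 26.1 and 23.1 CPM with AOA, most of it Cd79b. The part that such cells had in the results given here was not tested. In bulk cultures, fewer cells of a type and less RNA per cell cannot be told apart.

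Of the 42 genes, 40 passed the low-count filter of edgeR and were tested with all other genes by its quasi-likelihood test, which gives each log2 fold change, its standard error (SE) and a p. A gene with a Benjamini-Hochberg adjusted p under 0.05 across the 11759 genes tested is called higher or lower with AOA. Among the 40, 7 were higher, 16 were lower and 17 were not called. Over all tested genes 26.2% were called higher and 26.8% lower, 53.0% in either direction, against 57.5% of these 40. The 2 groups of libraries did not overlap for 25 of the 40 genes, or 62.5%, where the share over all tested genes was 62.1%. The median log2 fold change of AOA over vehicle was -0.26 over the 40 genes and -0.02 over all tested genes. In all, 13 of the 40 were called with a log2 fold change of 1 or more in size, against 26.2% of all tested genes. By family, the phosphodiesterases held 8 of the 16 lower genes, with a median log2 fold change of -1.10, and the PKA regulatory genes were the family with the highest median, 0.77.

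In each group 1 library stood apart over all genes. Vehicle replicate 2 differed from the other vehicle libraries by a chi-square per gene of 55.1 and 59.7, against 10.02 between those, and AOA replicate 1 from the other AOA libraries by 71.1 and 64.6, against 10.53. Vehicle replicate 2 was the lowest of the vehicle libraries for Pde2a, Pde3b, Pde4b, Pde4d, Pde1b, Gna13, Crem and Nr4a1, but the highest for Pde4a, Pde4c, Gna15, Gnaq and Gng11. That library also had the highest levels of Ncr1, Klrb1c and Fcer1g, at 2.35, 111 and 53.4 CPM against at most 0, 41.7 and 5.86 CPM in the other vehicle libraries. Without it the summed phosphodiesterase level, described next, had a log2 ratio of -1.62 in place of -1.44, and 8 of the genes were called higher and 16 lower, of which 7 and 14 were among those called with all libraries. Without AOA replicate 1 this log2 ratio was -1.37, and 7 genes were called higher and 15 lower, of which 7 and 14 were among those called with all libraries.

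**Figure D1:**
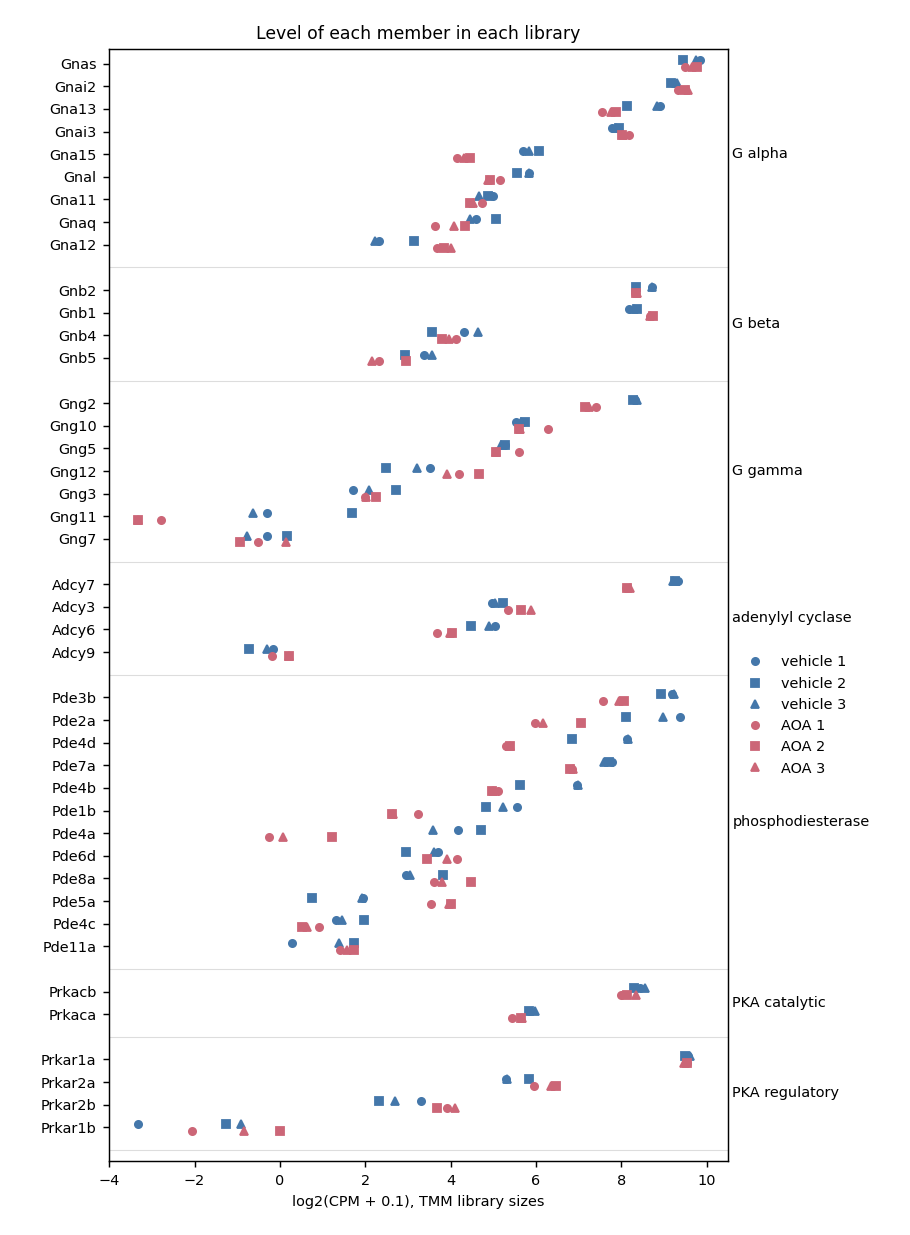
Level of each of the 42 genes in each library, as log2 of CPM plus 0.1 on the horizontal axis, with 1 row per gene and families from top to bottom. Blue marks are the vehicle and red marks the AOA libraries, with circles, squares and triangles for mice 1, 2 and 3. Among the tested genes the groups of Pde4a differ most, at 11.9 to 25.9 CPM with vehicle and 0.736 to 2.22 CPM with AOA.

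To set genes of different length on a common scale, CPM were divided by the deposited gene length in kilobases and summed over each family. This sum was much lower with AOA for phosphodiesterases and adenylyl cyclases. Phosphodiesterase genes summed to 379, 235 and 343 CPM per kb in vehicle replicates 1, 2 and 3 and to 105, 131 and 116 CPM per kb in AOA replicates 1, 2 and 3. The lowest vehicle library, replicate 2, was still above every AOA library, and the log2 ratio of the group means was -1.44 ± 0.52 (SD of the ratios within mice, n = 3). Within mice 1, 2 and 3 it was -1.85, -0.84 and -1.57. Adenylyl cyclase genes summed to 113, 108 and 105 CPM per kb with vehicle and to 54.1, 57.8 and 61.4 CPM per kb with AOA, a log2 ratio of -0.91 ± 0.15 (SD, n = 3). The other families differed less in sum. G alpha genes had a log2 ratio of 0.01 ± 0.14, G beta genes of -0.04 ± 0.16 and PKA regulatory genes of 0.03 ± 0.08 (SD, n = 3 each), each smaller than its spread between mice. PKA catalytic genes summed to 84.5 to 98.6 CPM per kb with vehicle and 67.3 to 84.0 CPM per kb with AOA, groups that did not overlap, with a log2 ratio of -0.27 ± 0.14 (SD, n = 3). G gamma genes summed to 198, 206 and 200 CPM per kb with vehicle and to 209, 149 and 150 CPM per kb with AOA, so that AOA replicate 1 lay with the vehicle libraries and the log2 ratio was -0.25 ± 0.30 (SD, n = 3), or -0.43 without that library. An exact permutation test of 3 against 3 cultures cannot give a p below 0.1, and none is given for these sums.

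**Figure D2:**
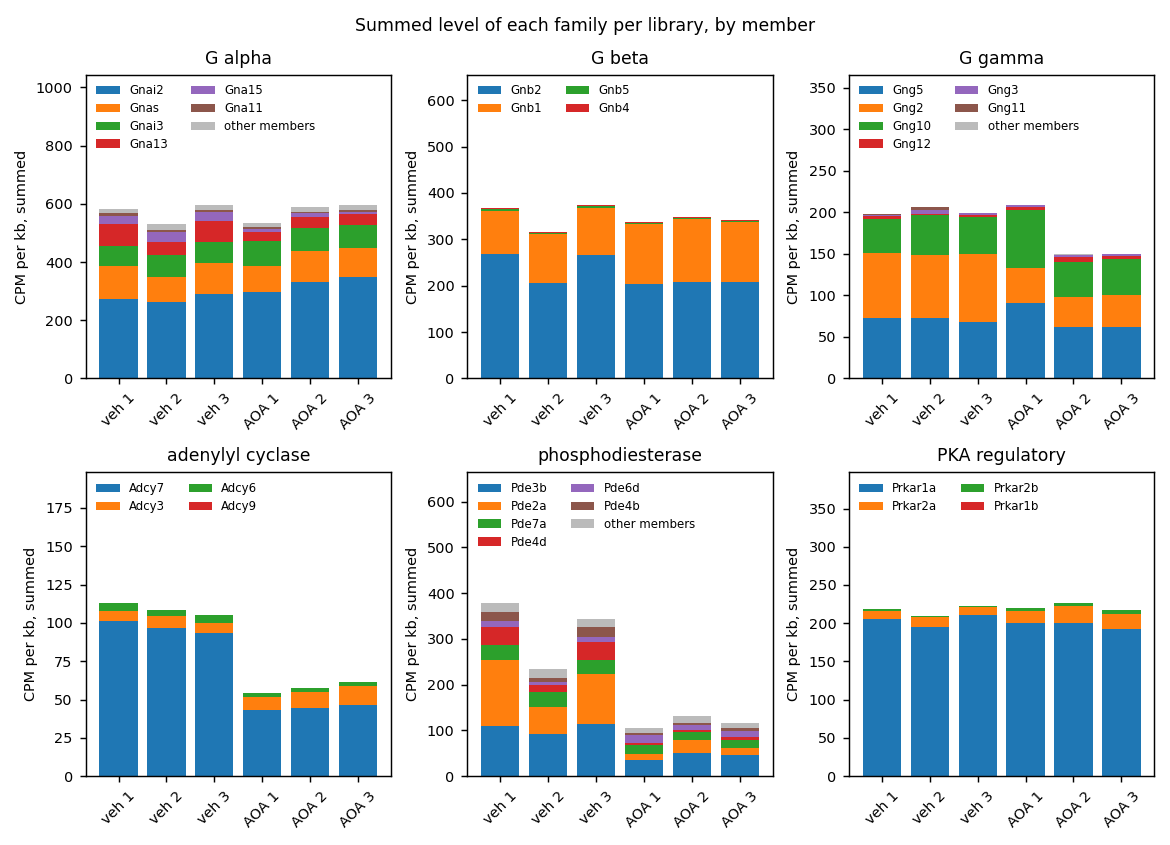
Summed level of 6 families in each library, in CPM per kb of gene length on a linear axis that starts at 0, with a bar for each of the 3 vehicle (veh) and 3 AOA libraries and a colour for each of the main genes. Phosphodiesterase bars fall from 235 to 379 with vehicle to 105 to 131 with AOA, and adenylyl cyclase bars from 105 to 113 to 54.1 to 61.4, while G alpha, G beta and PKA regulatory bars stay at like heights.

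The alpha subunits that couple receptors to adenylyl cyclase were not called, except for the minor Gnal. Gnai2 (Entrez gene 14678, chromosome 9 from 107614125 to 107635391 in RefSeq on GRCm38.p6, the assembly also called mm10), the main Gi subunit of lymphocytes and the carrier of chemokine receptor signals, was the most abundant G alpha gene per kb, at 276 CPM per kb with vehicle and 326 CPM per kb with AOA. It had 597, 571 and 634 CPM with vehicle and 646, 721 and 762 CPM with AOA. Gnai3 had 221, 245 and 233 CPM with vehicle and 291, 261 and 263 CPM with AOA. For both the groups did not overlap, yet with log2 fold changes of 0.24 and 0.22 neither passed the test (adjusted p = 0.194 and 0.180 by edgeR). The share of Gnai2 in the G alpha sum per kb was 48.5 ± 1.37% with vehicle and 56.7 ± 1.70% with AOA (SD, n = 3 each). Gnas, the Gs subunit, had 918, 699 and 864 CPM with vehicle and 718, 876 and 804 CPM with AOA, with overlap and a log2 fold change of -0.05 (SE 0.17). Gnal, a Gs class subunit best known from olfactory neurons, was lower, from 56.7, 46.7 and 57.3 CPM to 35.9, 30.1 and 29.5 CPM (log2 fold change -0.75, adjusted p = 0.00244 by edgeR). Its exons overlap on the other strand those of Mppe1, which had a log2 fold change of -0.90, and Gnas overlaps Nespas (1.60) in the same way.

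Of the Gq class, whose subunits activate phospholipase C beta, Gna15 fell most. Gna15 (Entrez gene 14676, chromosome 10 from 81502313 to 81524447) is the member typical of blood cells. It had 51.8, 67.0 and 57.1 CPM with vehicle and 17.6, 21.9 and 19.8 CPM with AOA, 2.97-fold lower and without overlap (log2 fold change -1.57, SE 0.16, edgeR adjusted p = 7.44e-05). Its neighbour Gna11 (chromosome 10 from 81528724 to 81545162), which lies next to it on the same strand, had 31.7, 29.4 and 25.4 CPM with vehicle and 26.3, 22.0 and 22.7 CPM with AOA and was not called (log2 fold change -0.28, adjusted p = 0.147 by edgeR). Gnaq was called lower, from 24.0, 33.2 and 21.9 CPM to 12.3, 20.2 and 16.8 CPM (log2 fold change -0.68, adjusted p = 0.0304 by edgeR), but not without vehicle replicate 1 or 2 or AOA replicate 1 or 3 (adjusted p of 0.0562 to 0.0992 by edgeR).

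In the G12 class the genes moved in opposite directions. Gna13 (Entrez gene 14674, chromosome 11 from 109362794 to 109401369), the abundant one, had 479, 279 and 458 CPM with vehicle and 186, 235 and 216 CPM with AOA (log2 fold change -0.93, SE 0.21, edgeR adjusted p = 0.00546). Vehicle replicate 2 was the lowest of its group. Gna12 (Entrez gene 14673, chromosome 5 from 140759944 to 140830431) had 4.92, 8.69 and 4.56 CPM with vehicle and 12.8, 14.4 and 15.9 CPM with AOA (log2 fold change 1.24, SE 0.27, edgeR adjusted p = 0.00387). Per kb, Gna13 remained above Gna12, at 65.4 and 3.22 CPM per kb with vehicle and 34.3 and 7.64 CPM per kb with AOA. Gna13 overlaps Gm11696 and Gna12 overlaps Amz1 on the other strand, with log2 fold changes of -1.09 and 2.25, so that in both pairs the partner was called in the same direction. Without a stated strand setting of the counting, reads of a pair cannot be told apart.

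Beta and gamma subunits form a stable pair that signals on its own after receptor activation. Gnb2 and Gnb1 made up 69.9 ± 4.06% and 28.4 ± 4.31% of the G beta sum per kb with vehicle and 60.4 ± 0.69% and 38.4 ± 0.55% with AOA (SD, n = 3 each). Gnb2 had 424, 325 and 421 CPM with vehicle and 322, 327 and 329 CPM with AOA and was not called. Gnb1 was 1.33-fold higher, from 290, 330 and 315 CPM to 407, 426 and 407 CPM, without overlap (log2 fold change 0.41, adjusted p = 0.0275 by edgeR), but it was not called in the fit with a replicate block for the mouse (adjusted p = 0.0538 by edgeR). Its call was also lost without vehicle replicate 1 or 3 or AOA replicate 2 or 3 (adjusted p of 0.0779 to 0.102 by edgeR). Gnb5, which pairs with RGS proteins of the R7 group, was called lower, from 10.3, 7.48 and 11.7 CPM to 4.87, 7.66 and 4.34 CPM (log2 fold change -0.81, adjusted p = 0.0350 by edgeR). The groups overlapped in mouse 2, and the call was lost without vehicle replicate 1 or 3 or AOA replicate 1 or 3 (adjusted p of 0.0967 to 0.137 by edgeR). Gnb4 was at 11.8 to 24.8 CPM and not called, except without vehicle replicate 2 (log2 fold change -0.49, adjusted p = 0.0378 by edgeR).

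Gng2 (Entrez gene 14702, chromosome 14 from 19872558 to 19977825), the most abundant gamma gene per kb with vehicle, fell. It measured 317, 309 and 329 CPM in vehicle replicates 1, 2 and 3 and 169, 142 and 151 CPM in AOA replicates 1, 2 and 3, with little spread within either group (log2 fold change -1.05, SE 0.13, edgeR adjusted p = 2.59e-04). Its share of the gamma sum per kb went from 39.4 ± 1.93% to 23.0 ± 2.55% (SD, n = 3 each). Gng5 and Gng10, the other abundant gamma genes, were not called (log2 fold changes 0.02 and 0.22). Both are short, with deposited lengths of 535 and 1120 bases, and both were highest in AOA replicate 1, at 48.7 and 77.5 CPM against 33.3 to 33.4 and 48.1 to 48.9 CPM in the other AOA libraries. Gng12 rose from 11.4, 5.52 and 9.12 CPM to 18.2, 25.3 and 14.9 CPM (log2 fold change 1.17, SE 0.29, edgeR adjusted p = 0.00826). Gng3, whose exons overlap Bscl2 on the other strand, and Gng7 were under 7 CPM in all libraries and not called. Gng11 did not pass the low-count filter. It had 9, 49 and 10 counts with vehicle and 1, 0 and 0 with AOA, a ratio of 87 per total count over the groups (exact 95% interval 15.1 to 3490, counting error only). Without vehicle replicate 2, which held most of these counts, the ratio was 36 (5.72 to 1490). Without the filter edgeR called it lower (adjusted p = 0.00242), as did DESeq2 (adjusted p = 6.74e-05).

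Of the adenylyl cyclases, the main one fell and a minor one rose. Adcy7 (Entrez gene 11513, chromosome 8 from 88272190 to 88329965), known as the main cyclase of lymphocytes, took 89.0 ± 0.36% of the family sum per kb with vehicle and 77.3 ± 2.44% with AOA (SD, n = 3 each). It measured 640, 612 and 590 CPM in vehicle replicates 1, 2 and 3 and 274, 281 and 292 CPM in AOA replicates 1, 2 and 3, levels that hardly varied within a group and did not overlap. The log2 fold change came to -1.12 (SE 0.13, edgeR adjusted p = 1.99e-04). Adcy6, a form inhibited by calcium, was lower as well, from 32.9, 22.3 and 29.9 CPM to 12.8, 16.2 and 15.8 CPM (log2 fold change -0.92, adjusted p = 0.00294 by edgeR). Adcy3 went from 31.4, 37.4 and 32.8 CPM to 40.6, 50.1 and 58.9 CPM (log2 fold change 0.56, adjusted p = 0.0183 by edgeR). This call was lost without vehicle replicate 1 or 3 or AOA replicate 3, with adjusted p of 0.0554 to 0.0873 by edgeR. Exons of Adcy3 lie opposite those of Cenpo, a centromere gene with a log2 fold change of 0.73, and without a stated strand setting of the counting their reads cannot be told apart. Adcy9 was below 1.1 CPM in all libraries and was not called.

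Phosphodiesterases of the PDE4 group, which are specific for cAMP and are the targets of rolipram, fell together: all 4 of Pde4a, Pde4b, Pde4c and Pde4d were called lower. Pde4d (Entrez gene 238871, chromosome 13 from 108654177 to 109955969) had the highest level of them. It measured 278, 115 and 286 CPM in vehicle replicates 1, 2 and 3 and 39.2, 41.8 and 42.0 CPM in AOA replicates 1, 2 and 3. Vehicle replicate 2 was the lowest vehicle library but lay above all AOA libraries, which were close to each other. The log2 fold change came to -2.46 (SE 0.31, edgeR adjusted p = 2.47e-04), a level 5.52-fold lower with AOA.

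Pde4b (Entrez gene 18578, chromosome 4 from 102087332 to 102607275) was likewise lowest in replicate 2 among the vehicle libraries, with 126, 49.45 and 126 CPM with vehicle and 34.3, 31.3 and 31.9 CPM with AOA. Its log2 fold change came to -1.63 (SE 0.31, edgeR adjusted p = 0.00211). Pde4a (Entrez gene 18577, chromosome 9 from 21165700 to 21213248) had the largest fall of the 40 genes, from 17.9, 25.9 and 11.9 CPM to 0.736, 2.22 and 0.958 CPM. Here vehicle replicate 2 was the highest vehicle library, not the lowest, and the AOA libraries held between 16 and 42 counts. The log2 fold change came to -3.84 (SE 0.44, edgeR adjusted p = 1.57e-04), and -4.44 without AOA replicate 2, which moved it most. Pde4c was at low levels, at 2.38 to 3.80 CPM with vehicle and 1.32 to 1.79 CPM with AOA (log2 fold change -0.95, adjusted p = 0.0296 by edgeR). Its call was lost without vehicle replicate 2 or 3 or AOA replicate 2 or 3, with adjusted p of 0.0604 to 0.101 by edgeR.

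Among the phosphodiesterases that act on both cAMP and cGMP, Pde3b, Pde2a and Pde1b were called lower. Pde3b (Entrez gene 18576, chromosome 7 from 114415222 to 114537938), an enzyme whose action on cAMP is inhibited by cGMP, was with Pde2a the most abundant of the family per kb, at 106 ± 11.9 CPM per kb with vehicle (SD, n = 3). Its levels were 580, 487 and 607 CPM with vehicle and 190, 265 and 247 CPM with AOA, without overlap (log2 fold change -1.25, SE 0.17, edgeR adjusted p = 4.13e-04). Pde2a (Entrez gene 207728, chromosome 7 from 101421691 to 101512829), whose activity cGMP stimulates, fell further and varied more between libraries. It measured 665, 274 and 502 CPM with vehicle and 62.6, 132 and 71.7 CPM with AOA. Mouse 2 had the lowest vehicle level and the highest AOA level, so its fall was the smallest of the 3 mice. The log2 fold change came to -2.44 (SE 0.37, edgeR adjusted p = 6.43e-04). In the family sum per kb, Pde2a went from 31.5 ± 6.31% to 16.0 ± 4.99% and Pde3b from 33.9 ± 5.15% to 37.6 ± 3.13% (SD, n = 3 each). Pde1b (Entrez gene 18574, chromosome 15 from 103503034 to 103530056), which calcium and calmodulin activate, went from 47.0, 28.1 and 37.3 CPM to 9.29, 6.08 and 6.20 CPM, a level 5.20-fold lower (log2 fold change -2.38, adjusted p = 9.06e-05 by edgeR).

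Pde7a (Entrez gene 18583, chromosome 3 from 19223108 to 19311322), a cAMP-specific enzyme of lymphocytes, had the smallest of the falls called in the family, with little spread. Its levels were 218, 209 and 194 CPM with vehicle and 116, 111 and 117 CPM with AOA (log2 fold change -0.85, SE 0.12, edgeR adjusted p = 4.92e-04). Pde8a, another cAMP-specific enzyme, went the other way without a call: 7.70, 14.1 and 8.14 CPM with vehicle and 12.04, 22.1 and 13.8 CPM with AOA. The groups overlap, with mouse 2 highest in both, and each mouse was higher with AOA (log2 fold change 0.68, adjusted p = 0.0860 by edgeR). Pde8a was called in the fit with a replicate block for the mouse (adjusted p = 0.0110 by edgeR), as it was without vehicle replicate 2 (log2 fold change 1.04, adjusted p = 0.00974 by edgeR).

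With all libraries and no block, Pde5a was the single phosphodiesterase called higher. Pde5a (Entrez gene 242202, chromosome 3 from 122729158 to 122859374), the cGMP-specific enzyme inhibited by sildenafil, had 3.73, 1.58 and 3.69 CPM with vehicle and 11.5, 16.0 and 15.5 CPM with AOA. Every AOA library was above every vehicle library, with a log2 fold change of 2.25 (SE 0.32, edgeR adjusted p = 4.83e-04). It remained a small part of the family, 0.135 ± 0.03% of the sum per kb with vehicle and 1.81 ± 0.18% with AOA (SD, n = 3 each). Pde11a, at 1.11 to 3.23 CPM in all libraries, and Pde6d, at 7.67 to 17.8 CPM, were not called. Pde6d encodes a carrier of prenylated proteins rather than a catalytic enzyme. By substrate, the 6 cAMP-specific genes summed to 67.7 to 101 CPM per kb with vehicle and 34.3 to 37.3 CPM per kb with AOA. The 4 genes of dual specificity summed to 160 to 266 and to 52.8 to 81.5 CPM per kb, and the cGMP-specific gene was at 0.236 to 0.554 and at 1.71 to 2.37 CPM per kb.

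Start-site sequences of the phosphodiesterases are shown because several PDE4 genes are textbook targets of CREB, the transcription factor that PKA phosphorylates and that binds the cAMP response element (CRE), TGACGTCA. RefSeq start sites on GRCm38.p6 were matched for 35 of the 42 genes, with 67 windows of the 250 bases before a start. The CRE and its core, CGTCA, were searched on both strands (as TGACG on the other), and each CRE holds the core on both. At least 1 window with the core was found in 12 of the 35 genes (34.3%), where 19.8% of all 27025 RefSeq genes with a start window have one. A whole CRE was in 1 of the 35 (2.86%), against 1.77% of the RefSeq genes. The RefSeq genes include ones not counted in these cultures, unlike the 35, so these shares are not from like sets. Windows of a gene can overlap and hold the same site. Genes differ in their number of windows, and 23.9% of the 67 windows against 17.8% of all 32851 windows held the core. Of the called phosphodiesterases with a window, Pde4a and Pde4b had the core, in 1 window each, and the windows of the others did not hold these letters. The other genes with it were Adcy7 (called lower), Gnb1 (called higher), Adcy9, Gnas, Gng7, Pde8a, Prkaca, Prkacb and Prkar1a (not called) and Prkar1b (not tested). Counts per gene do not say which start was in use. The windows of Pde4a (chr9:21183851-21184100, plus strand), Pde4b (chr4:102421305-102421554, plus strand) and Pde5a (chr3:122728908-122729157, plus strand), for the largest fall, a fall with the core and the rise, read as follows from 5′ to 3′, with the core in capitals.
Pde4a: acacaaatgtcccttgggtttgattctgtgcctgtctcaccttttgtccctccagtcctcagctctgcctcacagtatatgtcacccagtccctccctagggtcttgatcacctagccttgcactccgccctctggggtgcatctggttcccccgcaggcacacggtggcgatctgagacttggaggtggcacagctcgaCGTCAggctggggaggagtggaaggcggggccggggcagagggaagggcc
Pde4b: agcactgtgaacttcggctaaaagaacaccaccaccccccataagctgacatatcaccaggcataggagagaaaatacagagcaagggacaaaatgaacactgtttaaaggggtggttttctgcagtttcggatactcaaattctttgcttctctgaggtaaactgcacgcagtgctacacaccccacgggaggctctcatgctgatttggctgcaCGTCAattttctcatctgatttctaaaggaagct
Pde5a: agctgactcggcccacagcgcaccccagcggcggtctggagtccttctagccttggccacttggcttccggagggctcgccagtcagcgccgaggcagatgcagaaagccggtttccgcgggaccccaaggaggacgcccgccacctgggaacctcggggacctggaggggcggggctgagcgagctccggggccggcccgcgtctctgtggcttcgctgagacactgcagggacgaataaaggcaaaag
The core began 50 bases before the start in Pde4a and 34 bases before it in Pde4b. The whole CRE was in a window of Prkar1a, whose RNA was not called, and is shown in capitals for comparison within a stretch of 30 bases cut from that window (chr11:109650889-109650918, plus strand).
Prkar1a: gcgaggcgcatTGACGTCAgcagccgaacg

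Among PKA subunits the abundant type I and catalytic ones were not called, while the type II regulatory subunits, which anchoring proteins hold at membranes and organelles, rose. Prkar1a, the type I alpha subunit, made up 93.8 ± 1.08% of the regulatory sum per kb with vehicle and 89.3 ± 1.47% with AOA (SD, n = 3 each). It had 761, 719 and 779 CPM with vehicle and 740, 742 and 709 CPM with AOA, with a log2 fold change of -0.04 (SE 0.14). Prkar2a (Entrez gene 19087, chromosome 9 from 108692143 to 108750444) had 39.5, 56.8 and 40.1 CPM with vehicle and 62.2, 89.1 and 81.3 CPM with AOA (log2 fold change 0.77, SE 0.19, edgeR adjusted p = 0.00811). Prkar2b (Entrez gene 19088, chromosome 12 from 31958450 to 32061648) had 9.84, 4.88 and 6.405 CPM with vehicle and 15.0, 12.7 and 17.0 CPM with AOA (log2 fold change 1.09, SE 0.27, edgeR adjusted p = 0.00748). In both, all AOA libraries were above all vehicle libraries. Prkar1b had between 0 and 17 counts in a library and was not tested. The catalytic genes Prkaca and Prkacb were lower in each of the 3 mice, from 56.9 to 62.8 CPM to 43.4 to 50.7 CPM and from 346, 314 and 373 CPM to 254, 280 and 324 CPM, but neither passed the test (log2 fold changes -0.29 and -0.27, adjusted p = 0.0811 and 0.158 by edgeR). Prkacb kept about the same share of the catalytic sum per kb, 74.2 ± 1.00% and 74.5 ± 1.26% (SD, n = 3 each).

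**Figure D3:**
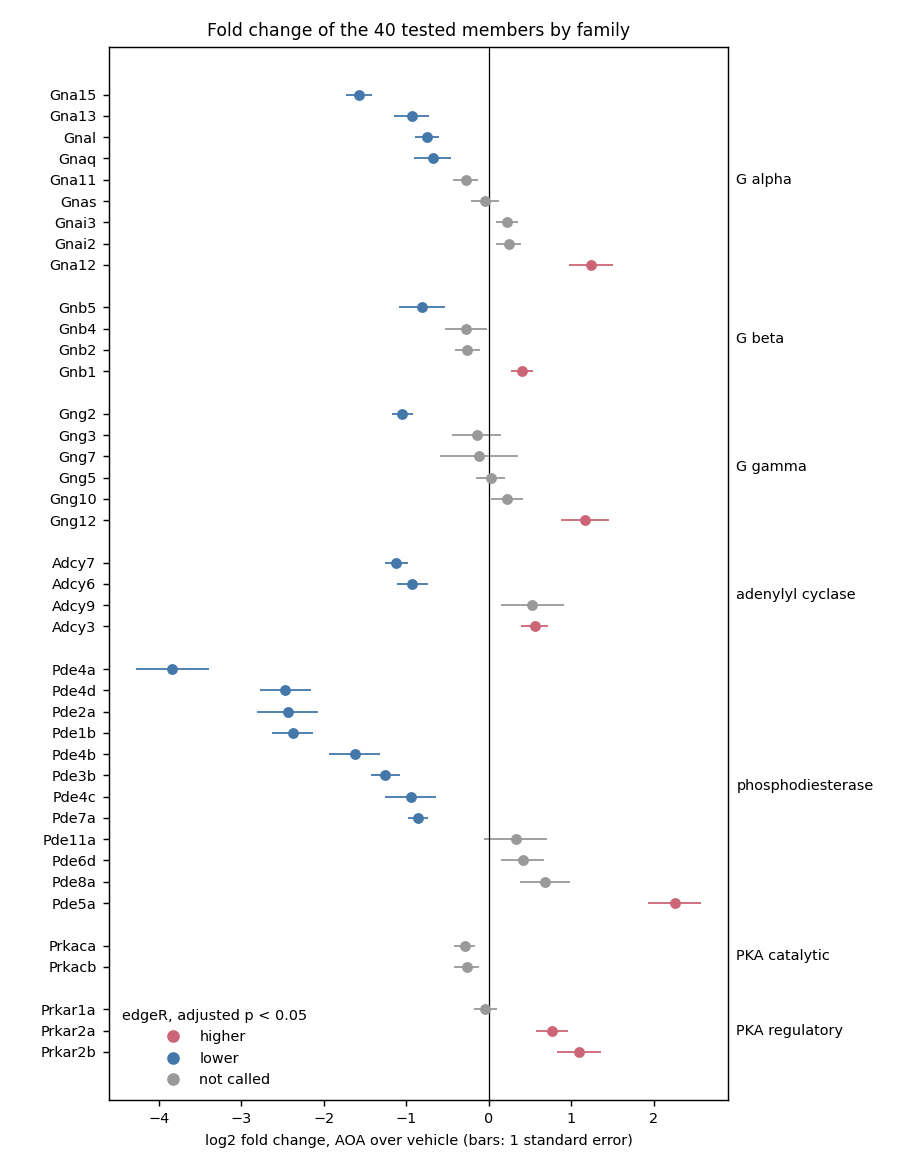
Log2 fold change of AOA over vehicle for the 40 tested genes on the horizontal axis, by family, with bars of 1 standard error. Red marks are called higher, blue marks lower and grey marks not called by edgeR at an adjusted p under 0.05. Values run from -3.84 for Pde4a to 2.25 for Pde5a, both phosphodiesterases.

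Other genes of the same pathway were read from lists, in the same test and against the same shares of all genes. Of 9 tested receptors that couple to Gs, 5 were lower and 1 higher with AOA. Adora2a, a receptor for adenosine, went from 70.2 to 120 CPM to 11.4 to 18.6 CPM (log2 fold change -2.68, adjusted p = 4.78e-05 by edgeR). Ptgir, the prostacyclin receptor, and Ptger2, a prostaglandin E2 receptor, had log2 fold changes of -2.98 and -2.22, the first of them -2.29 without vehicle replicate 3. Ptger4, another prostaglandin E2 receptor, rose by 0.87, from 26.8 to 35.8 CPM to 48.5 to 72.5 CPM. Of 12 RGS domain genes, which mostly speed the shutting off of G alpha subunits, 7 were lower and 3 higher, with Rgs16 at -4.67 (-3.23 without vehicle replicate 2) and Rgs18 at 2.41 (3.22 without it). The lower count was 4 without vehicle replicate 3, as Rgs9, Rgs10 and Rgs14 lost their calls, and the call of Axin2, 1 of the 3 higher, was lost in 4 of the fits that leave out a library.

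Rapgef3 (EPAC1), a cAMP sensor that does not need PKA, fell from 7.48 to 15.6 CPM to 0.460 to 0.757 CPM (log2 fold change -4.22, adjusted p = 3.82e-05 by edgeR). Rapgef4 (EPAC2) was at 44.9, 8.24 and 39.1 CPM with vehicle and 14.3, 11.998 and 13.4 CPM with AOA, with overlap through vehicle replicate 2, and was called without that library only (log2 fold change -1.63, adjusted p = 2.97e-05 by edgeR). Of 8 CREB factors and coactivators 2 were lower and 1 higher, and Creb1 itself had a log2 fold change of -0.05. The lower count was 4 without AOA replicate 2, with Crtc3 and Ep300 gained, 4 with the filter at 10 CPM, with Crtc3 and Crebbp gained, and 3 without vehicle replicate 2, with Crtc3 gained. Atf1, the higher gene, lost its call without vehicle replicate 1, while Crtc1 gained one without AOA replicate 1. Crebbp was called lower in the fit with a replicate block for the mouse (adjusted p = 0.0498 by edgeR). Crem, a CREB relative that is itself induced by cAMP, went from 159, 62.6 and 193 CPM to 41.1, 41.0 and 25.9 CPM (log2 fold change -1.94, adjusted p = 0.00217 by edgeR). Of 8 tested CREB target genes, Crem among them, 6 were lower and 0 higher. Nr4a3 and Nr4a1 had log2 fold changes of -2.56 and -2.47. Nr4a1 was at 20.1, 3.61 and 19.7 CPM with vehicle and 2.25, 3.33 and 2.22 CPM with AOA, so that mouse 2 hardly differed. Fos and Dusp1 were not called (1.08 and 0.37), although Fos was called higher without AOA replicate 3 (1.43). These genes also respond to T cell receptor signals.

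Of the 8 symbols looked for in the cGMP list 2 had values, and both genes were called higher. Gucy1a1 and Gucy1b1 encode the subunits of soluble guanylate cyclase, the nitric oxide receptor that makes cGMP. Gucy1a1 had 14, 15 and 24 counts with vehicle and went from 0.951 to 1.30 CPM to 7.86 to 14.2 CPM (log2 fold change 3.35, SE 0.31, edgeR adjusted p = 5.21e-05). Gucy1b1 had 1, 7 and 4 counts with vehicle and went from 0.0794 to 0.444 CPM to 2.93 to 4.44 CPM (log2 fold change 3.82, adjusted p = 2.34e-04 by edgeR, 4.50 without vehicle replicate 2). Other genes tied to cGMP, outside the list and named after their values were seen, were called lower: the guanylate cyclase Gucy2e (log2 fold change -5.32), the cGMP-gated channel Cnga1 (-1.96) and Mrvi1 (-2.28). Of 10 anchoring proteins of PKA, 2 were higher and 2 lower. Akap1, which anchors PKA at mitochondria, rose by 1.06 and Akap9 fell by 1.00 on the log2 scale, while the call of Akap2 (-1.40) was lost by DESeq2 (adjusted p = 0.0947), by limma (0.195), without the low-count filter (0.0504 by edgeR), in the fit with a replicate block for the mouse (adjusted p = 0.0672 by edgeR) and without each library other than vehicle replicate 2. Of 10 chaperones and regulators of G proteins, 5 were higher and 2 lower, and without vehicle replicate 3, or without AOA replicate 3, 3 were higher and 1 lower, as Cct2, Gnb1l and Ric8a lost their calls. Without vehicle replicate 1 the counts were 3 and 2, without vehicle replicate 2 they were 5 and 1, without AOA replicate 2 they were 4 and 1, and without AOA replicate 1 they were 4 and 3, with Rack1 gained as lower (log2 fold change -0.49). Gpsm2, which also orients the mitotic spindle, rose by 1.52 and Gpsm3 fell by 0.96 on the log2 scale.

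**Figure D4:**
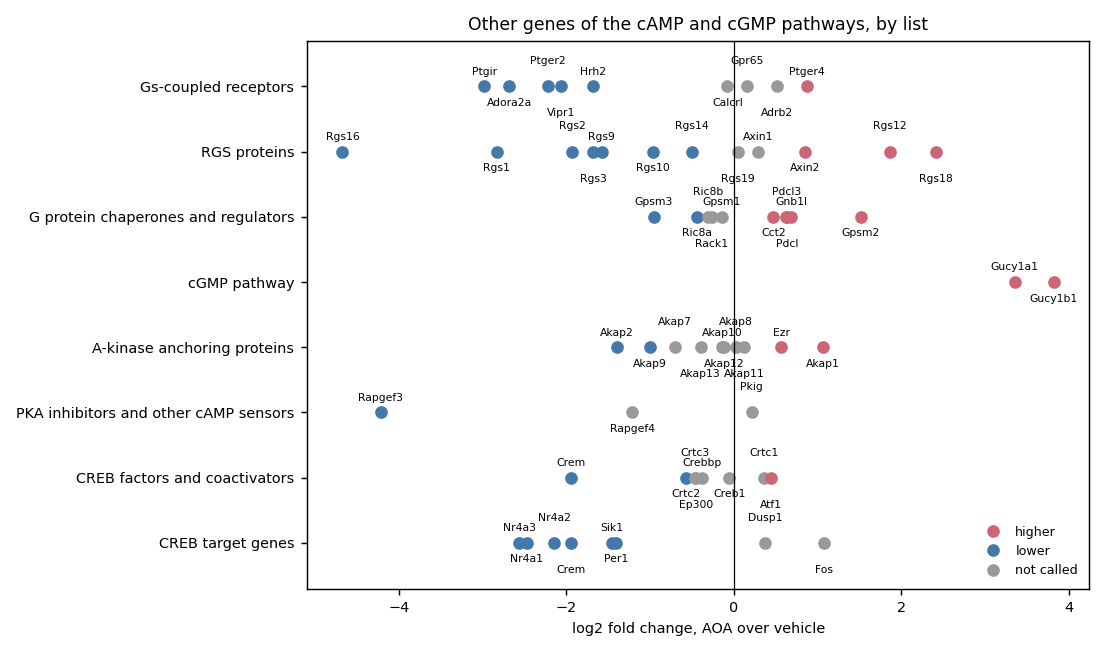
Log2 fold change of AOA over vehicle on the horizontal axis for each tested gene of 8 lists of the cAMP and cGMP pathways, with 1 row per list and the gene symbol beside each mark. Red marks are called higher, blue marks lower and grey marks not called by edgeR. Gs-coupled receptors hold 5 lower genes and 1 higher gene, CREB targets 6 lower genes and no higher gene, and the cGMP list 2 higher genes.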

How the data were processed

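RNA of 6 CD8+ T cell cultures, 3 with vehicle and 3 with AOA, was sequenced as stranded messenger RNA libraries with paired-end reads. Raw counts per gene, deposited by the authors for 11922 genes, came from reads that STAR had placed uniquely. The submitters' processing notes also name bcl2fastq, featureCounts, DESeq2 and mm10. Whether strand was used in counting, and how genes were filtered, is not stated in the labels or the paper. A gene length that the authors deposited served for levels per kb. Per the labels each mouse number is a donor shared by both groups, and deviations from the group means correlated within mice 1, 2 and 3 with r of 0.0868, 0.189 and 0.194 across genes, which are not independent replicates. Replicates differed by more than sampling noise (chi-square per gene from 10.0 to 71.1). Nothing beyond the donors is known of how separate the cultures were.

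In R 4.3.3, edgeR 4.0.16 was run with filterByExpr (minimum count 10), TMM and the robust quasi-likelihood test without the mouse, adjusted over 11759 genes at a threshold of 0.05. The SE is the absolute log2 fold change over the root of its F statistic. The row with no symbol has an Entrez number and stayed in. Alternatives were size factors by median of ratios or by total count, DESeq2 1.42.0, limma 3.58.1 (voom), no filter, a filter at 10 CPM in 3 libraries, a replicate block for the mouse, and each library left out. Steps were tested on simulated data. Genes and lists were chosen with earlier results of these data known. By rule, library values are given for up to 4 called genes per family and direction at 1 CPM or more and for the most abundant gene per kb, and up to 3 called genes per direction of a pathway list are named. A few others were named after their values were seen. Start sites came from RefSeq and exon overlaps with counted genes from GENCODE vM21, found for 6 of the 42 genes, each on the opposite strand.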

Additional observations from a re-analysis of the deposited data

How the results depend on the processing

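The counts of G protein, adenylyl cyclase, phosphodiesterase and PKA genes called higher (7) and lower (16) stayed within 1.5 times these values under every alternative run. They ranged from 5 to 8 and from 14 to 16 with each library left out. Of the genes called with all libraries, 5 to 7 stayed higher and 13 to 15 stayed lower in these fits. Gng11, not tested in the main fit, was called lower in each of them. DESeq2 and the fit without a filter called 17 lower, the addition being Gng11. With the mouse as a replicate block the counts were again 7 and 16, with Pde8a gained and Gnb1 lost, and it changed no other call among these genes. Of 514 refits of the 40 tested genes, 491 kept the call or its absence, 20 lost a call (Gnb1, Gnb5, Gnaq, Adcy3 and Pde4c) and 3 gained one (Pde8a and Gnb4), with no change of direction in a called gene. The cause of these losses was not tested, apart from there being fewer libraries in 19 of them. Of 61 pathway genes, 38 were called, and 29 to 39 under the alternatives, the lowest with the filter at 10 CPM, which tests fewer genes. DESeq2, which also tested list genes outside the 61, called 40 in all. In the sums per kb the G gamma log2 ratio of -0.25 became -0.61 without division by length, which by construction gives the long Gng2 more weight. With each library left out it ranged from -0.43 to -0.17. All groups have 3 cultures, and levels under about 1 CPM rest on few counts.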
